A study of Mus musculus with 6 samples.

Results

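The DLK and LZK axon injury pathway was followed in retinal ganglion cells (RGCs), the neurons of the retina that send axons through the optic nerve, at an age when they grow axons rapidly and at an age when that ability has been lost. Its 10 members were taken by gene symbol from the table of read counts, among 24060 genes in all, and all 10 passed the expression filter that left 16449 genes for testing. They are the mitogen-activated protein kinase kinase kinases (MAP3Ks) Map3k12, which encodes DLK, and Map3k13, which encodes LZK, the MAP2Ks Map2k4 (MKK4) and Map2k7 (MKK7), the c-Jun N-terminal kinases Mapk8 (JNK1), Mapk9 (JNK2) and Mapk10 (JNK3), and the transcription factor genes Jun, Atf3 and Ddit3 (CHOP). DLK here is the dual leucine zipper kinase, not the unrelated Notch-family ligand Dlk1.

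Both ages came from wild-type C57BL/6 mice, with 3 samples at embryonic day 18 (E18, replicates 1, 3 and 4) and 3 at postnatal day 5 (P5, replicates 6, 8 and 9). The retinas were dissociated with papain, macrophages were removed on a first dish, and RGCs were held on a dish coated with an antibody against CD90 (Thy1). No sample is labelled as injured or treated, and dissociation itself cuts the axons of the cells. The injury samples of the same study were not analysed here. How many animals went into each sample, and whether samples came from separate preparations, is not given in the sources used here, so p-values measure the spread between these samples alone.

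In neurons, DLK and LZK sit at the top of a kinase relay that senses damage to the axon. They phosphorylate MKK4 and MKK7, which phosphorylate the JNKs, and the JNKs in turn phosphorylate c-Jun, while ATF3 and CHOP are transcription factors induced downstream of this relay and of the integrated stress response. After optic nerve injury the relay is known for carrying the death signal of RGCs, and in other neurons it is also needed for axon regrowth. Its activity is set by phosphorylation and by protein stability, neither of which was measured here.

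Sample totals ran from 81213639 to 114512853 reads assigned to genes. The RGC markers were present at both ages, with a summed level over 15 genes of 9900 to 11605 CPM (the count scaled to library size) at E18 and 10084 to 11113 CPM at P5, and Rbpms at 276 CPM or more in every sample. By edgeR's quasi-likelihood test (adjusted p under 0.05), 5 of the 15 were higher at E18 and 5 lower. Over all genes the shares were 20.8% and 22.5%. The higher ones were Isl1, Sncg, Tubb3, Gap43 and Ebf1. The lower ones were Pou4f3, Slc17a6, Nefl, Nefh and Thy1, the antigen used to hold the cells. E18 replicates 1 and 3 carried transcripts of other cells. Tfap2b, an amacrine cell factor, was at 47.5 and 119 CPM in E18 replicates 1 and 3 and at 1.62 CPM or less in the other 4 samples. The 10 amacrine markers together differed less, at 817, 1004 and 682 CPM in E18 replicates 1, 3 and 4 and 629 to 763 CPM at P5. By the same test 4 of the 9 tested were higher and 1 lower at E18, against 20.8% and 22.5% of all genes. The 10 genes of dividing cells summed to 316 and 124 CPM in E18 replicates 1 and 3 against 54.6 to 74.1 CPM in the others. The 8 endothelial and pericyte markers summed to 72.5 and 64.5 CPM in these replicates and to 14.5 to 17.7 CPM in the others, of which Kdr alone made up 69.5 and 62.9 CPM, while Pecam1 was at 0.895 CPM or less and Cdh5 at or near 0 in every E18 sample. Microglial markers summed to at most 2.76 CPM in any sample. Fewer cells of a type and less RNA per cell cannot be told apart in such bulk samples. Values for E18 replicate 4 alone against P5 are therefore given beside the counts of members, and the part of these other cells in the remaining values was not tested.

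The pathway did not move as a block. All 3 transcription factor genes were higher at E18, whereas each kinase tier was split, with one or more members higher and one or more lower or not called. Of the 10 members, 9 passed edgeR's quasi-likelihood test at an adjusted p of 0.05, against 43.4% of all genes tested. They were higher at E18 in 6 cases, against 20.8% of all genes, and lower in 3, against 22.5%. The 3 samples of one age did not overlap with those of the other in the same 9 members, against 56.1% of all genes. The median log2 fold change of the members, E18 over P5, was 0.40 and its median size without sign was 0.59, while over all genes tested these were 0.00 and 0.39. With E18 replicate 4 as the only E18 sample, every member kept its direction. For the 9 members without overlap this was all but fixed in advance, since replicate 4 is one of the 3 E18 samples. For Map3k12, whose ages overlapped, the log2 fold change was then -0.05.

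**Figure D1:**
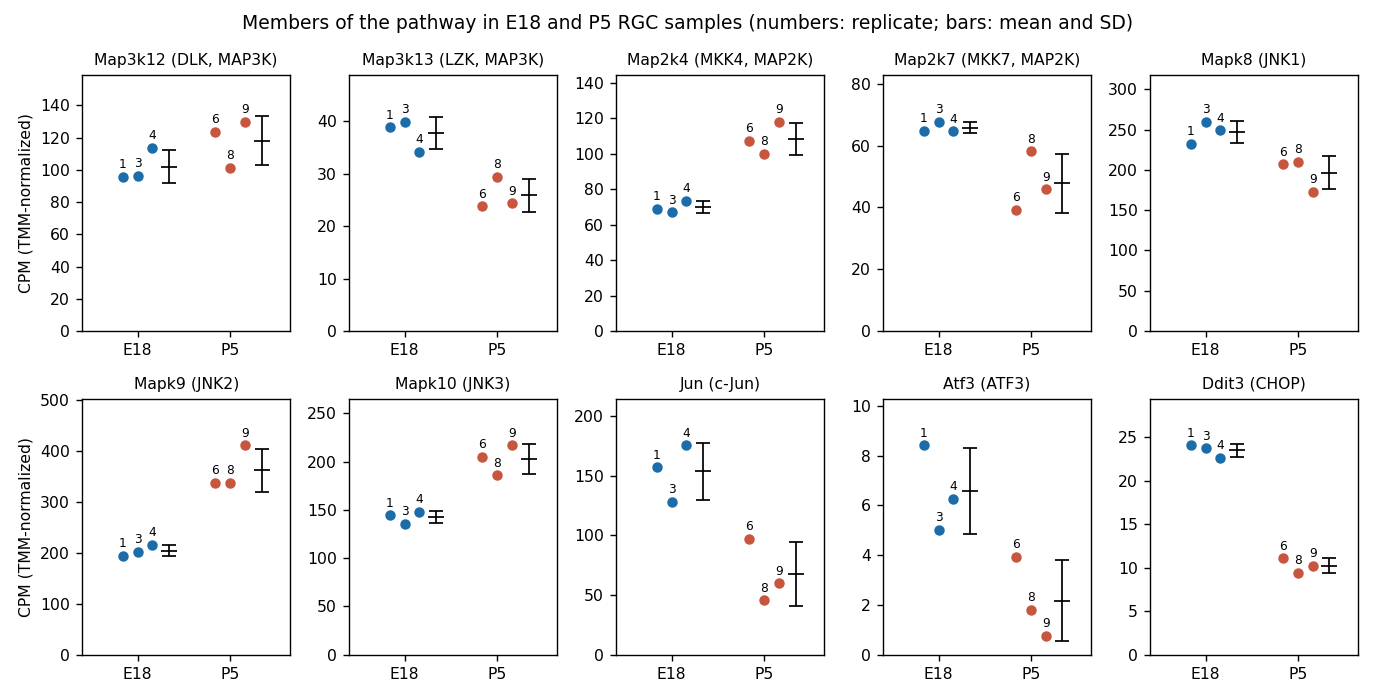
Level of each member in CPM (vertical axis, linear, from 0) in the E18 samples (blue) and the P5 samples (red), with each point labelled by its replicate number and the mean and SD of the 3 samples beside it. Only Map3k12 shows overlapping ages, and Jun, Atf3 and Ddit3 lie above their P5 levels in all 3 E18 samples.

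Coordinates of the members are those of the mouse assembly mm10. At the top of the relay, Map3k12 (chromosome 15, 102497646 to 102517064, minus strand) was at 95.6, 96.2 and 114 CPM in E18 replicates 1, 3 and 4 and at 123, 101 and 130.0 CPM in P5 replicates 6, 8 and 9. The ages overlapped, since E18 replicate 4 was above P5 replicate 8. The log2 fold change was -0.21 ± 0.120 (SE), with a 95% interval of -0.49 to 0.06, and was not called by edgeR's quasi-likelihood test (adjusted p = 0.177). That outcome depended on P5 replicate 8, without which DLK transcript was lower at E18 by the same test, with a log2 fold change of -0.33 (adjusted p = 0.0199).

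Map3k13 (chromosome 16, 21794346 to 21933439, plus strand), whose product LZK acts beside DLK, was higher at E18. It was at 38.9, 40.0 and 34.2 CPM at E18 and at 23.8, 29.5 and 24.4 CPM at P5, so that the lowest E18 sample was above the highest P5 sample. The log2 fold change of 0.54 ± 0.119 (SE), a 1.46-fold higher level at E18, passed edgeR's quasi-likelihood test (adjusted p = 0.00724). It passed with any one sample left out. Exons of Map3k13 overlap the noncoding 1300002E11Rik over 227 bases on the same strand, and those of Map3k12 overlap Pcbp2 over 1573 bases on the opposite strand. Whether the counting used strand is not given in the sources used here, and reads in these overlaps could not be assigned with certainty.

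The balance of the 2 MAP3Ks within a sample does not depend on how libraries are scaled. There were 2.46, 2.405 and 3.32 reads of Map3k12 for each read of Map3k13 in E18 replicates 1, 3 and 4, and 5.20, 3.43 and 5.34 in P5 replicates 6, 8 and 9. The mean ratio was 2.73 ± 0.514 (SD, n = 3) at E18 and 4.66 ± 1.06 at P5. The log2 ratio differed by -0.76, with no overlap between the ages. Its two-sided exact permutation p was 0.1, the smallest that 3 samples against 3 allow. E18 replicate 4 and P5 replicate 8 were nearly equal, at 3.32 and 3.43.

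In the tier below, the MAP2Ks diverged. Map2k4 (chromosome 11, 65688243 to 65788297, minus strand), whose product MKK4 can activate p38 as well as JNK, was at 68.8, 66.9 and 73.5 CPM at E18 and at 107, 100.1 and 118 CPM at P5. Every E18 sample was below every P5 sample, and the log2 fold change of -0.64 ± 0.0951 (SE) passed edgeR's quasi-likelihood test (adjusted p = 0.00137). Map2k7 (chromosome 8, 4238740 to 4247897, plus strand), whose product MKK7 is specific for JNK, was at 64.9, 67.8 and 64.6 CPM at E18 and at 39.3, 58.2 and 45.8 CPM at P5. Here the E18 samples lay close together and above all P5 samples, with a log2 fold change of 0.46 ± 0.139 (SE, edgeR adjusted p = 0.0263). The call of Map2k7 was fragile, since it was lost in 5 of the 6 fits with one sample left out, with log2 fold changes of 0.32 to 0.48 and adjusted p up to 0.0847. Without P5 replicate 8 it was kept (0.61, edgeR adjusted p = 0.00157). Its exons overlap the predicted gene Gm49320 over 1349 bases on the same strand.

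The MAP2K balance shifted accordingly. Reads of Map2k4 and Map2k7 were nearly equal at E18, with ratios of 1.06, 0.987 and 1.14, and stood at 2.73, 1.72 and 2.58 at P5. The means were 1.06 ± 0.0754 and 2.34 ± 0.543 (SD, n = 3). No sample overlapped, and the difference in log2 ratio was -1.12 (two-sided exact permutation p = 0.1, again the smallest possible).

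The JNK genes encode the kinases that phosphorylate c-Jun. JNK1 and JNK2 are found in most tissues and JNK3 mainly in the nervous system. Mapk8 (chromosome 14, 33377898 to 33447158, minus strand) was at 232, 260.2 and 249 CPM at E18 and at 207, 209.9 and 173 CPM at P5, without overlap, and was 1.26-fold higher at E18 (log2 fold change 0.33 ± 0.102, edgeR adjusted p = 0.0288). This call was lost without E18 replicate 3, without E18 replicate 4 or without P5 replicate 9, with adjusted p up to 0.108. Mapk9 (chromosome 11, 49846751 to 49886421, plus strand) went in the opposite direction, with 194, 201 and 215 CPM at E18 and 337, 337 and 410.5 CPM at P5. Its log2 fold change of -0.83 ± 0.104 was the largest among the 7 kinases and passed in every setting tried (edgeR adjusted p = 0.000705).

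Mapk10 (chromosome 5, 102907948 to 103211334, minus strand) was at 144, 136 and 148 CPM at E18 and at 205, 186 and 217 CPM at P5. It too was lower at E18 in all 3 samples, by a log2 fold change of -0.50 ± 0.0907 (edgeR adjusted p = 0.00301), and kept its call with any one sample left out. JNK2 and JNK3 transcripts were lower at the younger age and JNK1 transcripts higher.

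Per kilobase of the listed RefSeq transcript, the 3 JNK genes summed to 106 ± 4.08 CPM per kilobase at E18 and 140 ± 7.34 at P5 (SD, n = 3). Of that sum, Mapk8 made up 39.6%, 42.2% and 39.4% in the E18 samples and 26.4%, 27.2% and 20.3% in the P5 samples. Mapk9 made up 40.7%, 40.2% and 41.9% at E18 and 52.8%, 53.6% and 59.4% at P5. The share of Mapk10 was 18.7% ± 1.04 at E18 and 20.1% ± 0.821 at P5, and its samples overlapped. At E18 JNK1 and JNK2 transcripts thus took almost equal shares, while at P5 the share of JNK2 was the larger in each sample. The exact permutation p, two-sided and adjusted over the 3 shares, was 0.15 for Mapk8, 0.15 for Mapk9 and 0.2 for Mapk10, with 0.1 the smallest unadjusted value possible.

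Which JNK gene led at E18 depended on the length used, since without any length Mapk8 took a mean of 41.7% and Mapk9 34.3%, and with all annotated exons joined Mapk8 took 33.6% and Mapk9 46.5%. The direction between the ages was the same with each length, with Mapk8 at 26.0% and 19.5% and Mapk9 at 47.4% and 60.0% at P5.

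**Figure D2:**
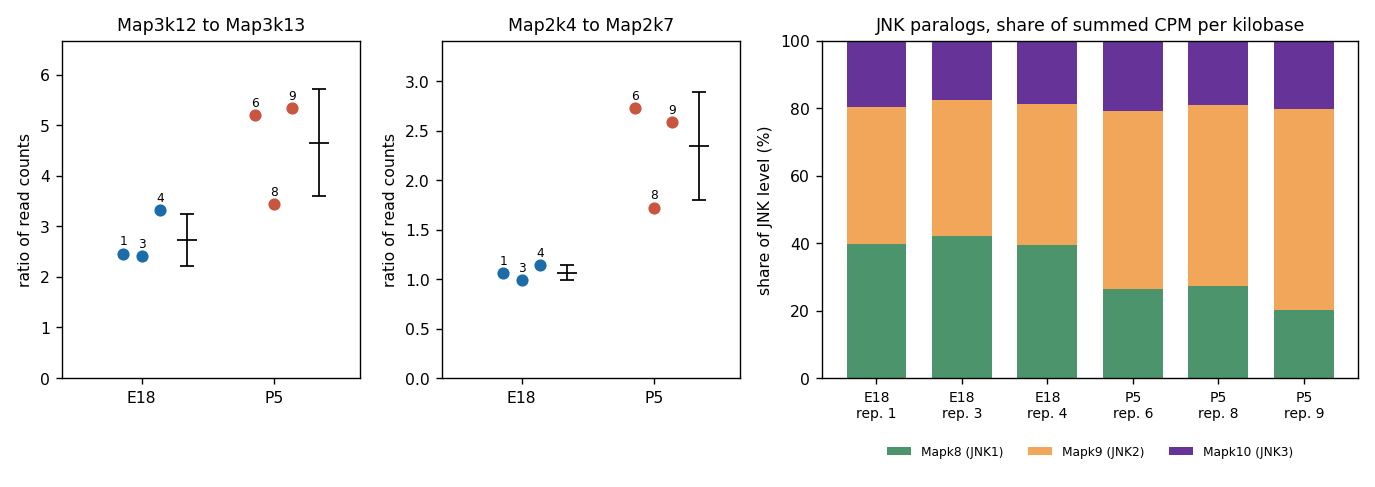
Left and middle, reads of Map3k12 per read of Map3k13 and reads of Map2k4 per read of Map2k7 in each sample, with the mean and SD of 3 samples beside the points (blue, E18, and red, P5). Right, share of each JNK gene in the summed CPM per kilobase, in percent of the sum, where Mapk8 falls from a mean of 40.4% at E18 to 24.6% at P5 and Mapk9 goes from 40.9% to 55.3%.

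At the nuclear end of the relay, Jun, Atf3 and Ddit3 were all higher at E18. Jun encodes the AP-1 subunit that JNK phosphorylates, Atf3 a stress-induced bZIP factor that pairs with c-Jun, and Ddit3 the bZIP factor CHOP of the integrated stress response. Because these 3 genes moved together, the 250 bases before each RefSeq transcription start (GRCm38.p6, the assembly of mm10) are shown 5′ to 3′ on the gene's own strand. Capitals mark the one searched motif found in each, which is TGACATCA, a c-Jun with ATF site, in Jun at chr4:95052223-95052472 (minus strand), TTGCATCA, a C/EBP with ATF element read on the opposite strand, in Atf3 at chr1:191183334-191183583 (minus strand), and TGACTCA, an AP-1 site, in Ddit3 at chr10:127290543-127290792 (plus strand).
Jun: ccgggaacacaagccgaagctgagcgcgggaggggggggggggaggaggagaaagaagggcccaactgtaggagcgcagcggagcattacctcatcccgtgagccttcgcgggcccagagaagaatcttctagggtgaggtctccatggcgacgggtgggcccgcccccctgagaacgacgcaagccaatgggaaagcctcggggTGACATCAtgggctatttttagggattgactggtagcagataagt
Atf3: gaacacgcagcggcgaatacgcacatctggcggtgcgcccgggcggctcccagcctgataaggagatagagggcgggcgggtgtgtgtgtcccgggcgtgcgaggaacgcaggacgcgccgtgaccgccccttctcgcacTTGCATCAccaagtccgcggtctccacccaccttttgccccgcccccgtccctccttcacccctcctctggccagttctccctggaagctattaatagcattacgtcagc
Ddit3: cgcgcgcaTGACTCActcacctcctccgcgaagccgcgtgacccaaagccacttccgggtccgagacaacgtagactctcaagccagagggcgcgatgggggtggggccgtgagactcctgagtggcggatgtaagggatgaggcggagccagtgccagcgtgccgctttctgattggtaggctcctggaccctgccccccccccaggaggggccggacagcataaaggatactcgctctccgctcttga

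Motifs were searched on both strands in 15 RefSeq promoters of the members and in 32851 promoters of the same length in all. Only 1 start of Atf3 was searched, and it lies inside the annotated span of the gene given below, not at its 5′ end. The AP-1 site TGANTCA was in 6.75% of all promoters and, among the members, 242 bases before the start of Ddit3 and 92 bases before one of the starts of Map2k7. The element TGACATCA was in 2.93% of all promoters and lay 45 bases before the start of Jun. The C/EBP with ATF element TGATGNAA was in 3.45% of all promoters and stood in those of Atf3 (110 bases before the start), Map3k13 (69 bases) and the same start of Map2k7 (59 bases). The cyclic AMP response element TGACGTCA, in 1.55% of all promoters, was found 29 bases before one start of Mapk10. No member had a match that belonged to more than one motif. A match is one of letters alone, and no binding was measured.

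Jun was at 157, 128 and 175 CPM at E18 and at 97.0, 45.6 and 59.9 CPM at P5. The lowest E18 sample was above the highest P5 sample, P5 replicate 6. The log2 fold change was 1.19 ± 0.250 (SE), a 2.27-fold difference (edgeR adjusted p = 0.00607), and with one sample left out it lay between 0.95 and 1.53 and was always called. Against E18 replicate 4 alone, a comparison in which the spread at E18 cannot be estimated, the log2 fold change was 1.39. Jun lies on chromosome 4, 95049034 to 95052222, minus strand, and its exon overlaps the antisense RNA Junos over 232 bases.

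Atf3 (chromosome 1, 191170296 to 191218039, minus strand) was scarce. It had 698, 562 and 568 reads in E18 replicates 1, 3 and 4 and 349, 178 and 71 in P5 replicates 6, 8 and 9, or 8.41, 5.01 and 6.27 CPM against 3.94, 1.81 and 0.755 CPM. The ages did not overlap, yet the P5 samples spread widely. The log2 fold change of 1.60 ± 0.500 (SE), with a 95% interval of 0.46 to 2.74, passed edgeR's quasi-likelihood test (adjusted p = 0.0304). The call was lost without E18 replicate 1 (edgeR adjusted p = 0.0787) and without P5 replicate 8 (adjusted p = 0.0831), and the log2 fold change rose to 2.34 without P5 replicate 6.

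Ddit3 had the lowest adjusted p of the members. It was at 24.1, 23.8 and 22.7 CPM at E18 and at 11.1, 9.43 and 10.2 CPM at P5, with little spread within either age. Its log2 fold change was 1.20 ± 0.111 (SE), a 2.29-fold difference (edgeR adjusted p = 0.000237), and it was called in every setting tried over 5 or 6 samples. Against E18 replicate 4 alone the log2 fold change was 1.16. The GENCODE entry used for the gene spans chromosome 10, 127290829 to 127293753, plus strand. The RefSeq start used for the promoter above lies slightly before this span.

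**Figure D3:**
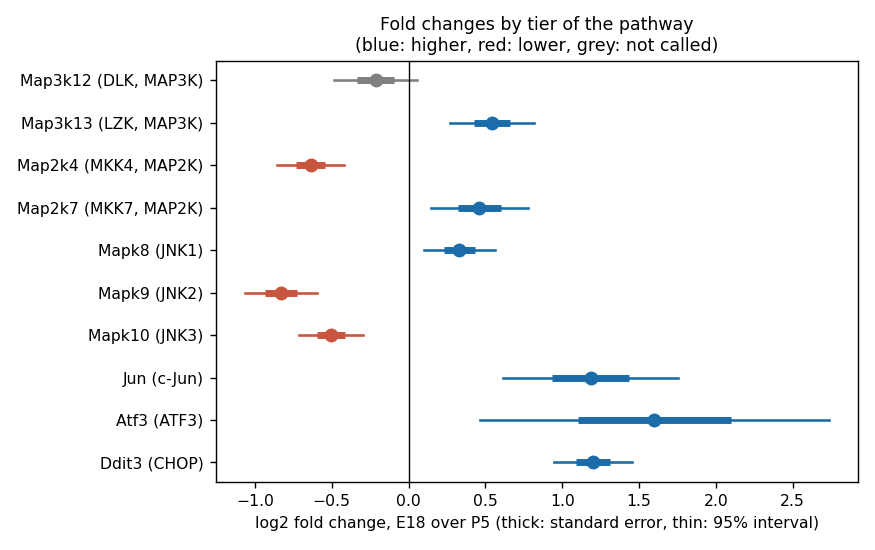
Log2 fold change of each member, E18 over P5, from edgeR's fit (horizontal axis), with the standard error as a thick line and the 95% interval as a thin one. Blue members are called higher at E18, red ones lower, and Map3k12 (grey) is the only one whose interval crosses 0.

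For Jun, Atf3 and Ddit3 the highest P5 sample, and the one nearest to the E18 mean, was P5 replicate 6, whereas for all 7 kinases the nearest was P5 replicate 8. Some of these places were near ties. In P5 replicates 6 and 8, Mapk9 was at 336.9 and 336.6 CPM and Mapk8 at 207.1 and 209.9 CPM. Ddit3 was at 11.1 CPM in P5 replicate 6 and 10.2 CPM in P5 replicate 9. Whether the transcription factors and the kinases follow different P5 samples was not tested. Over the 13426 genes that averaged 1 CPM or more, P5 replicate 8 was nearest in 53.5%, P5 replicate 6 in 28.7% and P5 replicate 9 in 17.8%. A list of 14 immediate early and dissociation genes summed to 310 CPM in P5 replicate 6, 282 in P5 replicate 8 and 195 in P5 replicate 9, and to 261 to 351 CPM at E18 with the highest value in replicate 1. Of these 14 genes 5 were higher and 2 lower at E18, against 20.8% and 22.5% of all genes, with a median log2 fold change of 0.01. The higher ones were Egr2 (2.41), Dusp1 (1.70), Ier2 (1.32), Junb (1.23) and Egr1 (0.75, named after its value was seen), immediate early genes that were higher at E18 as Jun and Atf3 were, and the lower ones were Npas4 (-1.35) and Fosb (-0.65). Fos, which neurons induce soon after a stimulus, was at 145, 113 and 145 CPM at E18 and at 144, 136 and 80.6 CPM at P5, and was not called (log2 fold change 0.16, edgeR adjusted p = 0.558). The part of dissociation in the levels of Jun and Atf3 was not tested.

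Levels can be ordered between genes only per kilobase of transcript, here of the listed RefSeq transcript. At E18 Jun stood highest, at 48.1 ± 7.46 CPM per kilobase (SD, n = 3), but its samples overlapped those of Mapk9 at 43.5 ± 2.31 and Mapk9 those of Mapk8 at 43.0 ± 2.45. Ddit3 followed at 26.4, apart from its neighbours. Mapk10, Map3k12, Map2k4 and Map2k7 came next between 18.8 and 19.8 CPM per kilobase with overlapping samples. Map3k13 at 5.62 and Atf3 at 3.31 were lowest, each apart from its neighbours.

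At P5 the order of the levels had changed. Mapk9 stood alone at the top at 77.3 ± 9.10 CPM per kilobase, above Mapk8 at 34.2, whose samples overlapped those of Map2k4 at 29.4. Mapk10 at 28.1 overlapped Map2k4 and was above Map3k12 at 22.8. Jun had gone from the first place to the sixth, at 21.2 ± 8.33 CPM per kilobase, where it overlapped Map3k12. Below it came Map2k7 at 13.7 and Ddit3 at 11.5, each overlapping the gene above it, and then, apart from their neighbours, Map3k13 at 3.85 and Atf3 at 1.09. DLK transcript was the more abundant of the 2 MAP3Ks per kilobase at both ages, in every sample.

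The middle of this order depended on the length used. With all annotated exons joined, a length chosen after the data were seen, Ddit3 at E18 stood sixth at 13.7 CPM per kilobase, below Map2k7 at 17.2 and Map2k4 at 15.0 and overlapping Mapk10 at 12.8. At P5 the mean of Jun, 21.2, then lay between those of Map2k4 at 23.3 and Mapk10 at 18.2 and above that of Map3k12 at 13.1, and its samples overlapped those of all 3. With either length Jun was highest at E18 and Mapk9 at P5, and Map3k13 and Atf3 were lowest at both ages.

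The genes around the relay were taken from lists of proteins that regulate it or act beside it. Of 92 tested genes in these lists, members left out, 43 were called (46.7%), near the 43.4% of all genes. None of the 4 JNK scaffold genes passed edgeR's quasi-likelihood test, none had an unadjusted p under 0.05, and DESeq2 and edgeR's exact test called none. Mapk8ip1, Mapk8ip2 and Mapk8ip3, which encode the JIP scaffolds that hold the relay together on transport vesicles, had log2 fold changes of -0.10, 0.00 and -0.07, with 95% intervals between -0.34 and 0.23.

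Of 7 genes that set the stability or the location of DLK, 2 were higher at E18 and none lower, against 20.8% and 22.5% of all genes. The 2 were the HSP90 cochaperone gene Cdc37 (log2 fold change 0.25) and the palmitoyltransferase gene Zdhhc17 (0.31). Both calls were lost in the fits without E18 replicate 3, without E18 replicate 4 or without P5 replicate 9. Mycbp2, the ubiquitin ligase PHR1 that turns DLK over, was at 573, 597 and 499.7 CPM at E18 and at 491, 581 and 479 CPM at P5, with overlap and no call (edgeR adjusted p = 0.452).

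Among 9 other MAP3Ks that can reach JNK, 3 were higher and 2 lower at E18, against 20.8% and 22.5% of all genes. Their median log2 fold change was 0.02. Map3k5, which encodes the oxidative stress kinase ASK1, stood out at 8.12, 7.90 and 7.96 CPM at E18 against 23.2, 27.5 and 27.0 CPM at P5. That is a log2 fold change of -1.70 ± 0.115 (edgeR adjusted p = 8.81e-05), called in every setting. Map3k1 (0.50), Map3k3 (0.45), Map3k4 (0.38) and Map3k2 (-0.38, named after its value was seen) changed less, and the 5 calls of this list fell to 3 or fewer in each fit with one sample left out other than that without P5 replicate 8. On the p38 branch, which runs beside the JNKs, 2 of 6 genes were higher at E18 and none lower, against 20.8% and 22.5% of all genes. The 2 were the kinase genes Map2k6 (log2 fold change 1.20) and Mapk11 (0.67).

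The dual-specificity phosphatases that can remove phosphate from JNK, and in part from other MAP kinases, formed the most uniform of these lists. All 5 were higher at E18 with each setting tried over 5 or 6 samples, against 20.8% of all genes, with a median log2 fold change of 1.58. Dusp16 was at 42.1, 32.8 and 30.8 CPM at E18 and at 13.7, 8.14 and 8.00 CPM at P5 (log2 fold change 1.82 ± 0.227). Dusp1, also an immediate early gene, was at 41.9, 38.5 and 38.6 CPM against 16.1, 11.6 and 8.96 CPM (1.70 ± 0.194). In neither gene did the ages overlap. Dusp4 (1.58), Dusp10 (1.26) and Dusp8 (0.42, named after its value was seen) made up the rest, all with adjusted p of 0.00907 or less by edgeR's quasi-likelihood test. Against E18 replicate 4 alone 3 of the 5 were called, and Dusp10 (0.97) and Dusp8 (0.57) were not.

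Of 11 AP-1 and bZIP partners of c-Jun, ATF3 and CHOP, 4 were higher and 2 lower at E18, against 20.8% and 22.5% of all genes. The median log2 fold change was 0.31. Junb was at 32.7, 23.0 and 32.4 CPM at E18 and at 12.9, 16.1 and 8.65 CPM at P5, without overlap (log2 fold change 1.23 ± 0.230, edgeR adjusted p = 0.0036). Jund was higher by 0.65 on the log2 scale, and Atf2, a JNK substrate that pairs with c-Jun, by 0.31 (edgeR adjusted p = 0.0244). All 3 Jun family genes were higher at E18. Fosb (-0.65) and Cebpb (-1.45, at most 1.57 CPM in any sample) were lower. The 6 calls of this list fell to 3 without E18 replicate 3, without E18 replicate 4 or without P5 replicate 6.

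Ddit3 is also read as an output of the integrated stress response, in which eIF2α kinases raise translation of ATF4. Of 13 genes of that response, 7 were higher and 2 lower at E18, against 20.8% and 22.5% of all genes, with a median log2 fold change of 0.42. With one sample left out, 5 or 6 were called higher. Atf4 was at 309, 320.3 and 309 CPM at E18 and at 190.3, 181 and 146 CPM at P5, with no overlap (log2 fold change 0.86 ± 0.110, edgeR adjusted p = 0.000749). The CHOP targets Trib3 (1.16) and Ppp1r15a (1.14), which encodes the eIF2α phosphatase subunit GADD34, differed by nearly the same amount as Ddit3 itself. Asns, the asparagine synthetase gene and a target of ATF4, was lower at E18 (-0.56, named after its value was seen), and so was Nupr1 (-2.84), at 1.09 CPM or less in every sample.

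A set of 4 transcription factors that act together downstream of DLK in dying RGCs is made up of Jun, Atf2, Sox11 and Mef2a. Sox11, which is also a factor of immature neurons, was at 833, 943 and 832 CPM at E18 and at 224, 283 and 119 CPM at P5 (log2 fold change 2.06 ± 0.268, edgeR adjusted p = 0.000806). Mef2a was lower at E18, at 135, 128 and 131 CPM against 217, 218 and 240.4 CPM (-0.78 ± 0.0840, edgeR adjusted p = 0.000375). Thus 3 of the set were higher and 1 was lower at E18, with no overlap between the ages in any of the 4. Over all genes 43.4% were called and 56.1% did not overlap. With one sample left out, 2 of the set were called higher in each fit other than that without P5 replicate 8, where 3 were.

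Further downstream, 1 of 8 pro-death BH3 genes was higher at E18 and none lower, against 20.8% and 22.5% of all genes. The gene called was Bik, at 0.350 CPM or less in any sample. The count of calls in this list lay between 0 and 2 over the other settings. Of 14 tested genes that injured and regenerating neurons induce, 6 were higher and 2 lower at E18, against 20.8% and 22.5% of all genes. The median log2 fold change was 0.33. Sox11 was among the higher genes, with Ecel1 (1.36) and Gadd45a (0.86), while Hspb1, a small heat shock protein gene, was far lower at E18, at 2.17, 1.56 and 1.73 CPM against 30.5, 14.4 and 42.7 CPM (-4.01 ± 0.378). The classic regeneration gene Sprr1a was at 0.0331 CPM or less in every sample and was not tested.

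Of 4 genes of the axon degeneration program none was called by edgeR's quasi-likelihood test, DESeq2 or edgeR's exact test, and none had an unadjusted p under 0.05 in the first. Sarm1, the NAD-cleaving executor of axon degeneration, was at 56.6, 56.6 and 66.0 CPM at E18 and at 53.1, 50.5 and 62.2 CPM at P5 (log2 fold change 0.11, 95% interval -0.14 to 0.37). Nmnat2, the axonal survival factor that opposes it, had a log2 fold change of 0.08 with an interval of -0.13 to 0.29. In both genes the ages overlapped.

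**Figure D4:**
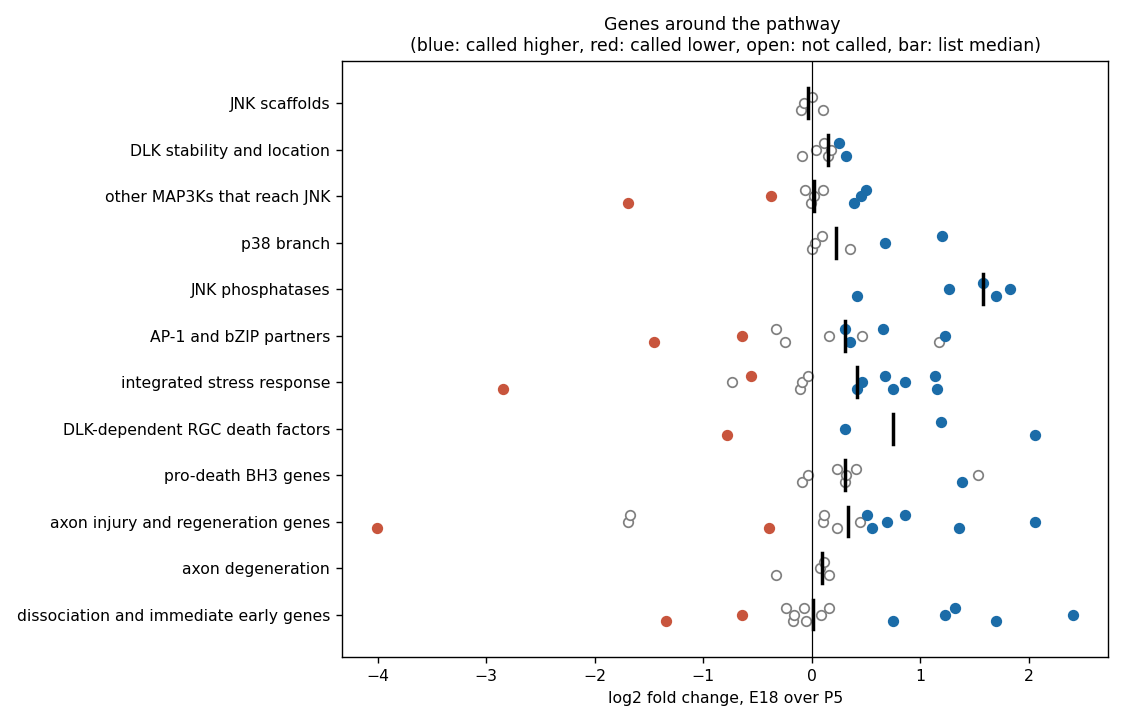
Log2 fold change, E18 over P5, of each tested gene (horizontal axis) in the lists around the pathway (rows), with filled points for genes called by edgeR's quasi-likelihood test (blue higher, red lower at E18), open points for those not called and a bar at each list's median. The JNK phosphatases sit farthest to the right with a median of 1.58, the JNK scaffolds lie near 0, and Hspb1 is the far left point at -4.01.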

How the data were processed

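RGCs of 2 ages were profiled by RNA-seq in 6 samples. The authors prepared libraries with a TruSeq RiboZero Gold kit (the labels name polyA RNA), sequenced 100-base paired-end reads, aligned them to mm10 with STAR 2.4.0, used HT-seq 0.6.1 to count them on RefSeq genes, and deposited raw read counts per gene. The normalized counts, fold changes, p-values, false discovery rates and rank that the authors also deposited were not used. One E18 column is named with the numbers 1, 2 and 5 and was taken as replicate 1. Samples of one age differed by more than sampling noise (chi-square of 30.5 to 141 per degree of freedom). Counts were scaled by TMM and tested in R 4.3.3 with edgeR 4.0.16 (quasi-likelihood test), without covariates, with Benjamini-Hochberg adjustment over the 16449 genes that passed filterByExpr and a threshold of 0.05. The spread between samples, not depth, limits the precision of most values. On simulated counts of this comparison over 16291 genes, 121 of 200 genes changed by 2-fold were recovered with 13 false calls. Only those 200 were changed there, whereas 43.4% of genes were called in the data. The recovered share therefore does not give the power of the real comparison. CPM values use TMM library sizes. Ratios and shares were compared by two-sided exact permutation tests in scipy 1.17.1. Alternatives were RLE and upper-quartile normalization, other filters, DESeq2 1.42.0, edgeR's exact test, other transcript lengths and the omission of each sample. Gene coordinates come from GENCODE vM21 and promoters from RefSeq. Members and lists were chosen with earlier results of these data known. All members are named, with up to 4 called genes of each list by the size of the fold change and Junb, Fos, Atf4, Atf2, Mapk8ip1, Mapk8ip2, Mapk8ip3, Mycbp2, Sarm1 and Nmnat2. Genes of other cell types were named for the check of the samples. The values of some genes are not reported here.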

Additional observations from a re-analysis of the deposited data

How the results depend on the processing

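The 9 member calls numbered 9 under RLE or upper-quartile normalization, both other filters on low counts, DESeq2 and edgeR's exact test, and 7 to 9 with one sample left out, with 4 to 5 higher and 3 to 4 lower. No member changed direction in any of these fits, which was all but fixed in advance for the 9 members whose ages did not overlap. Calls over all genes numbered 7135, from 6331 to 7652 under the other settings and from 4575 to 8796 with one sample left out, where 4575 was the count without E18 replicate 3. Of 92 tested genes in the lists around the pathway 43 were called (46.7%, against 43.4% of all genes), from 40 to 46 under the other settings and from 31 to 45 with one sample left out. With E18 replicate 4 alone against P5, a comparison chosen after the markers of other cells were seen, in which the lone sample is assumed to vary like the P5 samples, 3 members passed (2 higher, 1 lower), with 23 list genes and 1633 of all genes. Every member kept its direction there, which was again all but fixed in advance for the 9 without overlap. The log2 fold changes were -0.74 for Mapk9, 0.41 for Map3k13 and 1.55 for Atf3, while that of Map3k12 went from -0.21 to -0.05. No ratio or share changed direction with another length (the joined exons were chosen after seeing the data), a pseudocount of 1 or one sample left out, where 2 samples against 3 allow an exact permutation p of 0.2 at the least. With one sample left out, the direction was fixed in advance for all of them but the share of Mapk10, whose ages overlapped. No paired analysis was possible because the ages share no replicate number. The lowest count of any member was 71 reads (Atf3 in P5 replicate 9), so depth limits the members less than the 3 samples per age do.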
